A study of Zea mays subsp. mays with 2 samples.

Results

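The loci described here are the shortest entries of a maize endosperm transcriptome, those whose end lies less than 300 bp from their start. The endosperm stores the starch and protein of the kernel. Their coordinates were read as chromosome, start and end, and every row with end minus start (the span) under 300 was taken, on any sequence. This gave 903 of 45157 rows, or 2.0% of all rows. The rule used the span and no measured value.

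RNA of wild-type and dek2 mutant endosperm (the source label reads kernel) was compared at 15 days after pollination. No inbred background, dek2 allele or number of pooled plants is given in the labels. The name dek stands for defective kernel, and Dek2 is known from published work as a pentatricopeptide repeat protein needed for splicing in mitochondria. Each genotype has 1 deposited table, so n = 1 throughout, although the series' design text speaks of triplicates. There is no spread between replicates, no p-value is given, and every difference is a difference between 2 libraries.

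Annotated loci of this length in a plant genome are of very different kinds. Structured RNAs of the translation and splicing machinery (transfer RNAs, 5S ribosomal RNA, small nucleolar RNAs, which guide chemical changes of other RNAs, and small nuclear RNAs, which form the spliceosome) are short by nature, as are the hairpin precursors of microRNAs. Short coding sequences, gene fragments and pseudogenes can be as short. In the RefSeq gene table for Zm-B73-REFERENCE-NAM-5.0, 4260 of 49888 genes are shorter than 300 bp. Among them are 1357 transfer RNA genes, 1309 ribosomal RNA genes, 655 small nucleolar RNA genes, 241 small nuclear RNA genes, 164 microRNA genes and 70 protein-coding genes. These counts have no lower limit of length, whereas no deposited span is below 100 bp. Any gene shorter than that is counted there but cannot be among the loci described here. The deposited tables carry no gene names, and 0 of the 903 starts equalled a gene start in that table, which is of another build. No locus is therefore given a name or a class here, and each is identified by its position as deposited. The sources used here give neither the genome build of the coordinates nor whether starts count from 0 or 1. Without gene names, neither the dek2 transcript nor markers of endosperm or other kernel tissues could be looked up to check the labels.

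The short loci lay on all 10 chromosomes and, like every distinct coordinate listed, overlapped no other listed locus. On chromosomes 1 to 10 there were 897 of them, 5 lay on unplaced scaffolds, 1 on the mitochondrial genome and 0 on the plastid genome. They made up between 1.58% of the rows of chromosome 5 and 2.38% of the rows of chromosome 10. All 903 had a coordinate of their own, whereas 21.3% of all rows shared theirs with another row. None of the 903 overlapped another row, which held for all 40123 distinct coordinates of the tables. Another listed locus lay within 1000 bp of 290 of the short loci, and the median distance to the nearest was 2698 bp. The distance was not computed for longer rows. Only 47 had another short locus within 10000 bp.

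Spans ran from 100 to 299 bp with a median of 225 bp, and 100 bp was also the smallest span of the whole table. A span that is a whole multiple of 3, as an uninterrupted coding sequence would give if the span is its length, was found for 429 loci (47.5%), against 35.1% of all rows and 38.4% of rows of 300 to 1499 bp. This share differed with length. It was 29.5% at 100 to 149 bp, below the share of all rows, 44.6% at 150 to 199 bp, 51.6% at 200 to 249 bp and 52.8% at 250 to 299 bp. The loci of 100 to 149 bp thus differ from the longer ones in the make-up of their spans. The most frequent spans were 285 bp with 20 loci, 240 bp with 17 and 273 bp with 15, all multiples of 3, followed by 157, 216 and 258 bp with 14 loci each.

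The level of a short locus fell steeply with its span. Levels are FPKM as deposited, that is fragment numbers scaled for transcript length and library total. The value 1e-05, which replaced a measurement 6118 times in wild type and 3690 times in dek2 over the whole table, is treated as no value. At 100 to 149 bp the median of the loci with a value was 290.8 FPKM in wild type against 455 in dek2. At 150 to 199 bp it was 18.6 FPKM and 22.2 FPKM, at 200 to 249 bp 4.77 FPKM and 5.13 FPKM, and at 250 to 299 bp 2.81 FPKM and 3.10 FPKM. The rank correlation of span and level, across loci within 1 library, was -0.66 over 576 loci in wild type and -0.64 over 698 loci in dek2. At 300 to 1499 bp it was -0.09 over 9291 rows and -0.06 over 10444 rows. These are descriptions across loci that share a library and a length scaling.

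The lowest listed value set a steep lower edge. Between 100 and 109 bp no listed value was below 694 FPKM in wild type or 865 FPKM in dek2. At 120 to 129 bp the lowest values were 125 FPKM and 152 FPKM, at 150 to 159 bp 16.3 FPKM and 13.9 FPKM, at 200 to 209 bp 3.88 FPKM and 3.79 FPKM, and at 290 to 299 bp 0.682 FPKM and 0.621 FPKM. Every value listed for a locus under 250 bp was therefore above 1 FPKM in either library. The lowest value listed at 100 to 109 bp was thus higher than most values at 250 to 299 bp, where 75% of loci lay at or below 8.99 FPKM in wild type against 8.62 in dek2. Just inside the length limit, at 290 to 299 bp, the 65 loci had a median of 1.25 FPKM in wild type against 2.72 in dek2, and just outside it, at 300 to 309 bp, 66 rows had 0.911 FPKM and 1.26 FPKM.

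**Figure D1:**
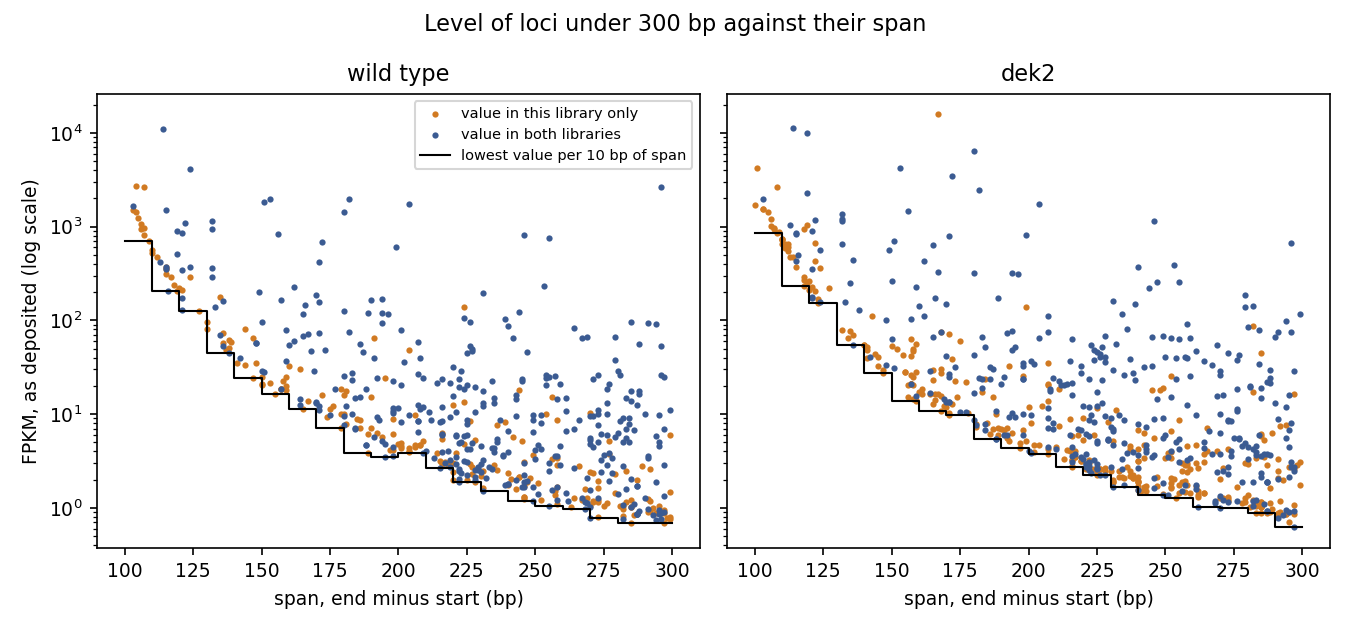
FPKM as deposited (log axis) against span in bp for the loci under 300 bp with a value, in wild type (left) and dek2 (right). Each point is a locus, coloured by whether it has a value in both libraries or only in the library shown, and the black line is the lowest value in each 10 bp of span; this edge falls from 694 FPKM in wild type against 865 in dek2 at 100 to 109 bp to 0.682 and 0.621 FPKM at 290 to 299 bp.

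Where loci of equal span were compared, some values stood in exact whole-number ratios. Loci of 121 bp numbered 6. For 3 of them, on chromosome 4 from 80677707 to 80677828, chromosome 9 from 120065538 to 120065659 and chromosome 9 from 83110772 to 83110893, the wild-type values were 856, 171 and 342 FPKM, which are 5, 1 and 2 times the lowest of the 3. Their dek2 values were 178, 357 and 892 FPKM, which are 1, 2 and 5 times the lowest. Steps of this kind are what whole fragments would give, but the number of fragments is not in the files. Over pairs of loci of equal span, 16 pairs in wild type and 30 in dek2 had equal values, and a further 16 and 37 pairs had ratios that were whole numbers up to 20 (within 0.01%), of 1125 and 1701 pairs. In all, 30 loci in wild type and 44 in dek2 belonged to such a pair. With steps counted from the lowest value in such a pair at each span, all 30 and 42 of the 44 stood on whole steps, 20 and 24 of them at the lowest. The other 2, both of 157 bp in dek2, had a ratio of 4 to each other and lay between the steps of that span. Since the loci were picked for such ratios, these counts were nearly fixed in advance. Other loci of the same spans lay off the steps. At 121 bp, 1 had 212 FPKM in wild type and another 226 FPKM in dek2. At 171 bp, 1 had 11.1 FPKM in wild type, below the lowest step of 12.2 FPKM.

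The largest group of equal values was at 157 bp. Of the 14 loci of this span, spread over 7 chromosomes, 7 had exactly 20.8 FPKM in dek2 and 4 had exactly 18.6 FPKM in wild type. Of the 7, 6 had no value in wild type, and of the 4, 3 had no value in dek2. The locus on chromosome 1 from 283239872 to 283240029 was the 1 that belonged to both groups. Loci far apart in the genome thus shared a single level in a library, and which of them had it differed between the libraries.

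Steps could be read in both libraries for 17 short loci. Only ratios up to 20 between loci of equal span were accepted, which largely limits the step numbers that could be found. The locus on chromosome 4 from 225965714 to 225965885 (171 bp) had 6 steps in wild type and 1 in dek2. Another 171 bp locus, on chromosome 1 from 174559801 to 174559972 had 13 steps and 2 steps. The 121 bp locus on chromosome 4 had 5 steps and 1 step. The opposite order was seen on chromosome 1 from 44175601 to 44175841 (240 bp), with 1 step in wild type (1.79 FPKM) and 5 in dek2 (7.81 FPKM). At 121, 157, 171 and 287 bp the lowest step of dek2 was 1.04, 1.11, 1.11 and 1.10 times that of wild type. At 148, 240 and 285 bp the lowest values on steps had ratios of 0.583, 0.873 and 0.0741. At 285 bp the steps of wild type and of dek2 came from different loci. Whether the lowest value found was the same step in both libraries was not tested.

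Fewer short loci than longer rows had a value in both libraries. A value was listed in wild type for 576 of the 903 loci and in dek2 for 698. Both libraries had one for 371 loci (41.1%), against 64.0% of rows of 300 to 1499 bp, 84.7% of rows of 1500 bp or more and 78.3% of all rows. Every listed row had a value in at least 1 library. These are therefore shares of rows with a value, not of all loci of a length. Among the short loci the share with both values was 23.8% at 100 to 149 bp, 38.3% at 150 to 199 bp, 47.0% at 200 to 249 bp and 44.3% at 250 to 299 bp. At 100 to 109 bp it was 1 of 23 loci. That locus, on chromosome 1 from 298652864 to 298652967, measured 1663 FPKM in wild type against 1981 in dek2. The next shortest with both values, on chromosome 4 from 235237746 to 235237859 (113 bp), had 417 FPKM and 1031 FPKM, or 2.02 and 4.47 times the lowest value listed at like span.

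**Figure D2:**
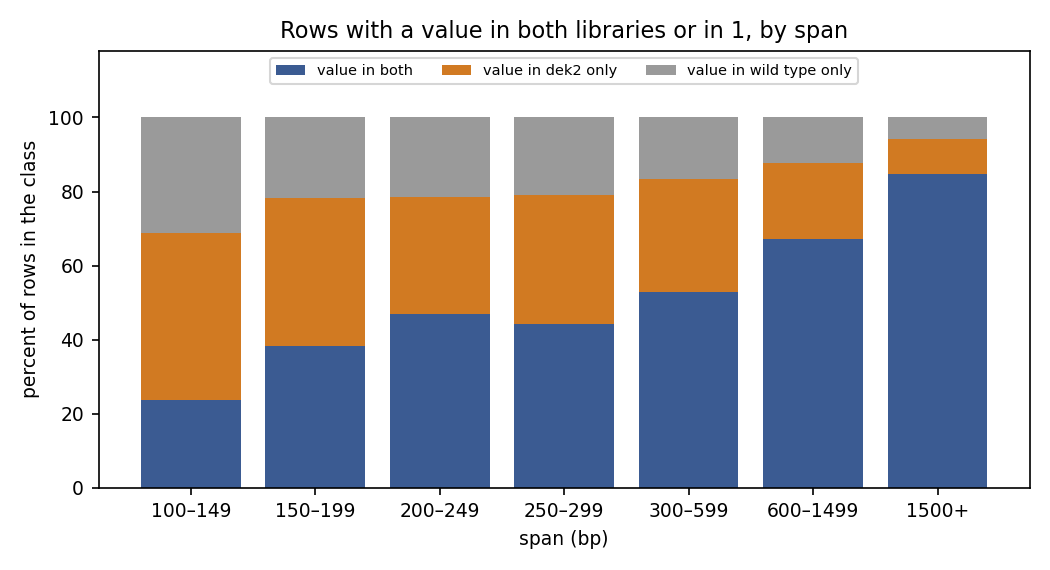
Percent of rows (vertical axis) with a value in both libraries, in dek2 only and in wild type only, for classes of span in bp (horizontal axis). The share with a value in both grows from 23.8% at 100 to 149 bp to 84.7% at 1500 bp or more.

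Loci with a value in 1 library only were more often those of dek2. At 1 FPKM or more in a library, which 871 of the 903 loci reached, 315 loci (36.2%) had a value in dek2 only and 189 (21.7%) in wild type only. Over all 28476 rows at 1 FPKM or more, the shares were 3.52% and 1.90%. This threshold widens the contrast. It removed few one-sided short loci (327 to 315 and 205 to 189) but most one-sided rows overall (6118 to 1002 and 3690 to 540). Counting any value, 36.2% of the short loci had one in dek2 only and 22.7% in wild type only. Of all rows these were 13.5% and 8.17%, and of rows of 300 to 1499 bp 22.8% and 13.2%. Back at 1 FPKM or more, the number of dek2-only loci for each wild-type-only locus was 1.67 among the short loci. It was 1.98 at 300 to 1499 bp and 1.86 over all rows. Both directions were thus frequent, and the surplus of dek2 was not larger in the short loci. At the same threshold this surplus was seen on all 10 chromosomes, from 26 against 25 loci on chromosome 4 to 29 against 10 on chromosome 10.

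Most of these one-sided values lay close to the lower edge. For each locus the lowest value among short loci within 5 bp of its span was taken as the local lowest value. This window is wide for the shortest loci, where the edge is steep, and the edge comes from the same values it is used to describe. Loci with a value in wild type only had a median of 1.62 times the local lowest value, and 168 of 205 (82.0%) were within 3 times. Loci with a value in dek2 only had a median of 1.61 times, and 249 of 327 (76.1%) were within 3 times. Of the 371 loci with both values, 40.4% were within 3 times in wild type and 36.1% in dek2, with medians of 4.21 and 4.81 times. At 10 times or more stood 30.5% and 34.5% of the loci with both values, 2.93% of those with a value in wild type only and 3.67% of those with a value in dek2 only.

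**Figure D3:**
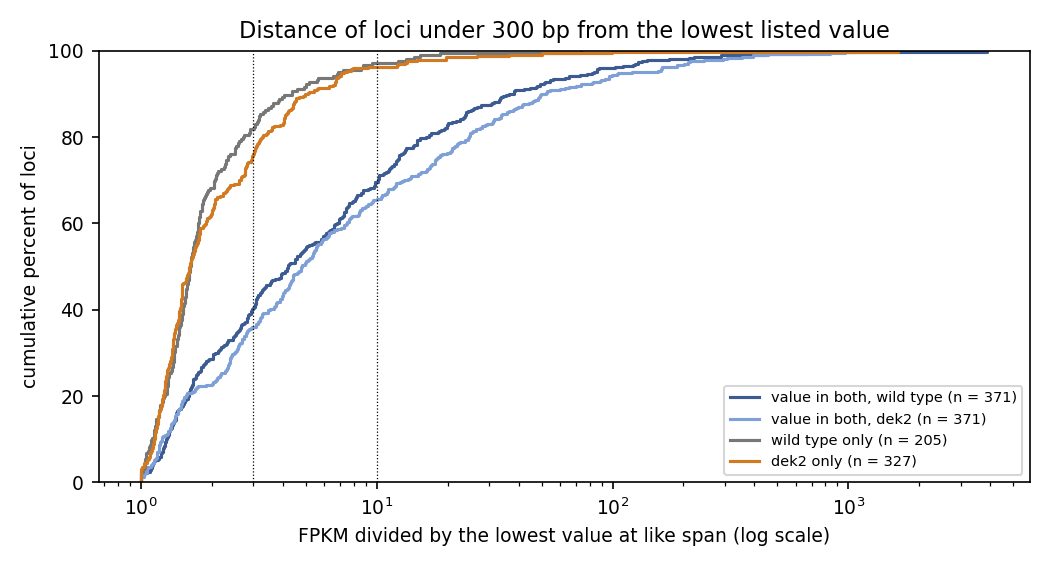
Cumulative percent of loci under 300 bp (vertical axis) against their FPKM divided by the local lowest value (log axis); dotted lines mark 3 and 10 times. The curves of loci with a value in 1 library only have reached 82.0% (wild type) and 76.1% (dek2) at 3 times, those of loci with both values 40.4% and 36.1%.

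A few one-sided loci lay far above the edge. The farthest, on chromosome 8 from 19496969 to 19497136 (167 bp), had 15847 FPKM in dek2 and none in wild type. It was the most abundant short locus of dek2, stood 1633 times above the local lowest value and alone held 1.48% of the FPKM of that library. Its nearest listed neighbour, 16545 bp away, had 35.1 FPKM in wild type against 59.4 in dek2, so no comparable difference was seen there. The next among loci with a value in dek2 only were those on chromosome 4 from 33156954 to 33157236 with 87.9 FPKM (99.4 times), on chromosome 8 from 41324004 to 41324289 with 44.6 FPKM (50.4 times) and on chromosome 9 from 59852044 to 59852243 with 139 FPKM (36.3 times). In wild type only, a locus on chromosome 1 from 216840614 to 216840838 had 139.7 FPKM (73.7 times) and a locus on chromosome 4 from 159319123 to 159319314 had 64.8 FPKM (18.5 times). In all, 12 dek2-only and 6 wild-type-only loci were at 10 times or more. They were singled out after their values were seen.

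By level alone, the other one-sided loci that come first are much nearer the edge. After the chromosome 8 locus, the highest values in dek2 only were 4180 FPKM on chromosome 9 from 142904443 to 142904544 (101 bp), 2670 FPKM on chromosome 3 from 37410978 to 37411086 (108 bp) and 1699 FPKM on chromosome 1 from 28642028 to 28642128 (100 bp, the shortest locus). These were 4.15, 5.63 and 1.18 times the local lowest value. The highest values in wild type only were 2683 FPKM on chromosome 5 from 14803845 to 14803949, 2671 FPKM on chromosome 1 from 15437939 to 15438046, 1496 FPKM on chromosome 1 from 123324475 to 123324578 and 1446 FPKM on chromosome 1 from 277443877 to 277443981. They were 3.86, 5.65, 1.85 and 2.08 times the local lowest value. Even the highest of these levels at about 100 bp were thus within 6 times of the smallest value that was listed at that length.

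The short loci held a larger part of the summed FPKM in dek2. In wild type they summed to 70905 FPKM of 1139650 FPKM, or 6.22%, and in dek2 to 125786 FPKM of 1073590 FPKM, or 11.7%. Both shares are above the 2.0% of rows that they are. The lower edge bears on these sums. Each value listed at 100 to 109 bp added at least 694 FPKM to the wild-type sum or 865 FPKM to that of dek2. At 290 to 299 bp the smallest additions were 0.682 and 0.621 FPKM. At 100 to 149 bp wild type had 67 listed values and dek2 had 84. How much of each share, or of their difference, comes from the edge was not tested. Loci of 100 to 149 bp, 122 in number, held 4.10% of wild type and 6.68% of dek2. Those of 150 to 199 bp held 1.20% and 4.01%, those of 200 to 249 bp 0.450% and 0.627%, and those of 250 to 299 bp 0.470% and 0.403%. The next longer rows, of 300 to 599 bp, also held a larger part in dek2, with 2.23% of wild type and 5.88% of dek2. A larger share in dek2 was thus also seen above the length limit. Of the 63076 FPKM of these rows in dek2, 1 row alone had 27440 FPKM. Their share without it was not computed. Rows of 600 to 1499 bp held 44.9% and 11.9%, and rows of 1500 bp or more 46.6% and 70.6%. A share depends on everything else in its library, and in RNA of a whole tissue fewer cells of a type and less RNA per cell cannot be told apart. Without the 100 most abundant rows of each library, the short loci held 4.13% of wild type and 4.58% of dek2.

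**Figure D4:**
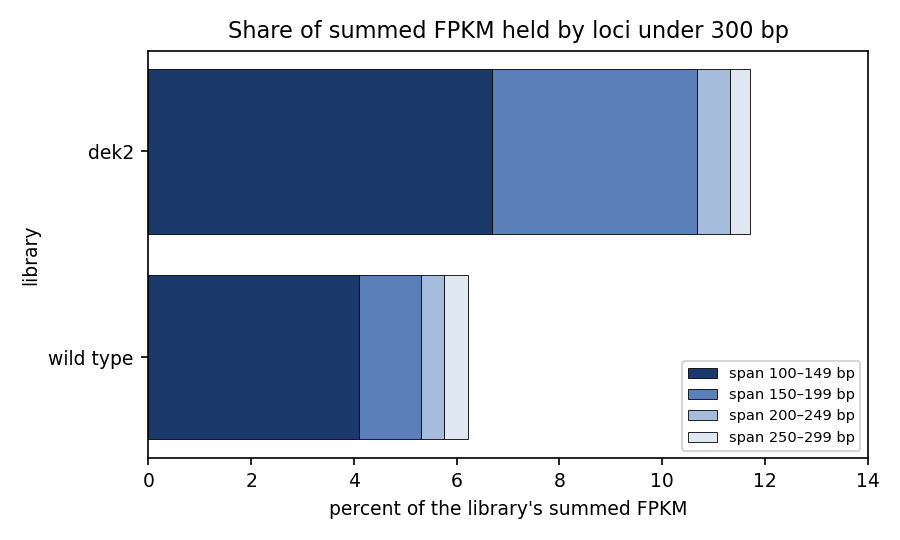
Percent of the summed FPKM of each library (horizontal axis) held by loci under 300 bp, stacked by span. The bars reach 6.22% in wild type and 11.7% in dek2, and loci under 200 bp make up most of both.

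The sums rested on few loci. In wild type 13 loci and in dek2 11 loci made up 50% of the sum, and the 10 most abundant held 45.6% and 49.96% of it. Without the 10 most abundant short loci of each library the shares were 3.08% in wild type and 5.34% in dek2. Among the 100 most abundant rows of the whole library were 20 short loci in wild type and 29 in dek2, and among the 10 most abundant 0 and 4. Loci with a value in 1 library only held 28.8% of the short loci's FPKM in wild type and 40.9% in dek2. With only the 371 loci that had both values, the shares were 4.43% and 6.93%. Of the 10 most abundant short loci of each library 3 were shared, and of the 100 most abundant 53.

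The most abundant short locus with a value in both libraries was at nearly the same FPKM in each. It lies on chromosome 9 from 23082518 to 23082632 (114 bp) and had 10993 FPKM in wild type against 11360 in dek2, 0.965% and 1.06% of the libraries. It was the highest short locus of wild type and the next to highest of dek2. Ratios are given after dividing dek2 by 1.503, the median ratio of 22250 rows that each reached 1 FPKM in wild type as well as in dek2, and as log2((dek2 + 1)/(wild type + 1)), a scale that understates the change of low loci. On it this locus was at -0.54. On the deposited values it was at 0.05, so its direction is set by the scaling.

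Other abundant loci had ratios of either sign. On chromosome 4 from 42341297 to 42341421 (124 bp), wild type had 4140 FPKM and dek2 563 FPKM, at a log2 ratio of -3.46. The dek2 value was 3.69 times the local lowest value, the wild-type value 33.1 times. On chromosome 10 from 74699775 to 74700071 (296 bp), wild type had 2656 FPKM and dek2 669 FPKM, at a log2 ratio of -2.57. At that length these values are 3893 and 1078 times the local lowest value, which makes it the short locus farthest from the edge in wild type. A locus on chromosome 4 from 143652612 to 143652765 (153 bp) had 1990 FPKM in wild type against 4217 in dek2, at a log2 ratio of 0.50. A scaffold_502 locus from 560573 to 560753 (180 bp) had 1446 FPKM in wild type against 6472 in dek2, at a log2 ratio of 1.57. Both of its values were far from the edge, at 211 and 969 times the local lowest value.

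Loci that differed at least 2-fold went both ways. Of the 367 loci with a value in both libraries and 1 FPKM or more in at least 1, 55 (15.0%) had a level in dek2 at least 2-fold above that in wild type and 83 (22.6%) at least 2-fold below it. Over all 26934 such rows, 11.2% were higher and 10.7% lower. The median log2 ratio of the short loci was -0.17, with the middle 50% between -0.85 and 0.62. For all rows it was 0.06, with the middle 50% between -0.50 and 0.56. At 300 to 1499 bp the higher loci were 14.8% and the lower 16.95%, with a median of 0.02, and at 300 to 599 bp 13.7% and 18.2%, with a median of -0.08. These are counts by size without a test.

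The surplus of lower loci depended on the scaling. On the deposited values 105 short loci were higher and 49 lower, so that 68.2% of the differing loci were higher, against 39.9% after scaling. Of 84 loci at 10 times or more in both, 12 were higher and 15 lower; their median was -0.05 and the middle 50% between -0.79 and 0.60. With 10 times or more in at least 1 library there were 41 higher and 40 lower loci among 157. That filter leaves the scaling unchanged and admits a locus through the library where it is high. Of the loci with both values, 128 passed in dek2 and 113 in wild type, so this balance is not independent of the filter. At the lowest steps of 121, 157, 171 and 287 bp, an equal number of steps in both libraries gives log2 ratios of -0.52, -0.41, -0.40 and -0.19. At 148, 240 and 285 bp, the lowest values taken as equal steps give -1.33, -0.45 and -3.13. The part of these steps in the surplus of lower loci was not tested.

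**Figure D5:**
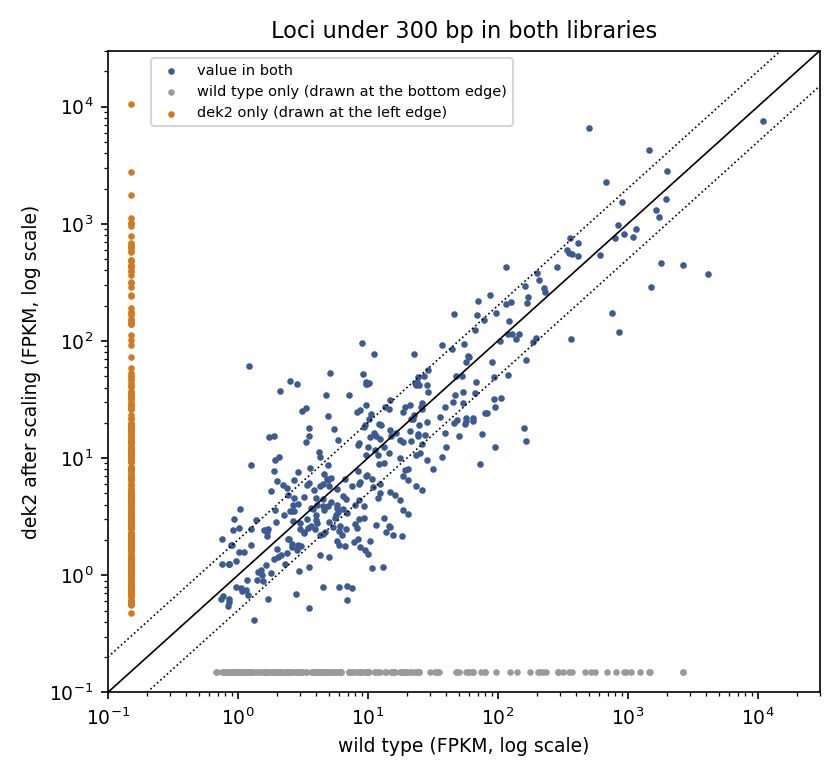
FPKM in dek2 after division by 1.503 against FPKM in wild type (both log axes) for loci under 300 bp. Loci with a value in 1 library only are drawn along the edges, the solid line marks equal values and the dotted lines 2-fold; 55 loci are at least 2-fold higher and 83 at least 2-fold lower on the scale with a pseudocount.

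The highest ratios belonged to loci within 4 times the local lowest value in wild type and far above it in dek2. The pool was 224 loci with both values and 10 FPKM or more in at least 1 library. Ranking this pool by ratio favours loci low in wild type and high in dek2. Their distances from the edge are therefore largely set by the selection. The locus on chromosome 4 from 124503350 to 124503608 (258 bp) had 1.23 FPKM in wild type, 1.21 times the local lowest value, and 91.1 FPKM in dek2, 88.6 times, at a log2 ratio of 4.79. It was followed by loci on chromosome 1 from 204919330 to 204919558, at 2.52 and 68.6 FPKM (log2 ratio 3.73) and on chromosome 7 from 169952229 to 169952348 (119 bp) with 506 and 9929 FPKM (3.71). The last of these stood 3.91 times above the local lowest value in wild type and 65.2 times in dek2, where it held 0.925% of the library. The remaining pair was on chromosome 3 from 222818102 to 222818334 with 2.09 and 55.9 FPKM (3.62), and on chromosome 7 from 73611159 to 73611418 with 2.87 and 64.5 FPKM (3.50). In all 5 the dek2 value was at least 33.6 times the local lowest value. The chromosome 3 locus lies 132 bp from a longer row that had 5.86 FPKM in wild type against 25.01 in dek2, also higher in dek2.

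The lowest ratios were smaller in size, and their dek2 values were within 5 times the local lowest value. The ranking favours loci low in dek2, so this nearness to the edge is also largely set by the selection. The locus on chromosome 9 from 70717194 to 70717384 (190 bp) had 165.6 FPKM in wild type against 21.1 in dek2, at a log2 ratio of -3.47, with dek2 at 4.10 times the local lowest value. The abundant 124 bp locus on chromosome 4 came next with -3.46. The 171 bp loci with 13 and 2 steps and with 6 and 1 steps followed, with 158 and 27.0 FPKM (log2 ratio -3.07) and 73.1 and 13.5 FPKM (-2.89). The 121 bp locus with 5 and 1 steps had 856 and 178 FPKM (-2.84). The lowest ratio of the 367 short loci was -3.47, and that of the 5262 rows of 300 to 1499 bp with a ratio was -10.61, a minimum over many more rows.

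Levels in both libraries followed each other across short loci. Over the 371 loci with both values the rank correlation was 0.80, and 0.66 after dividing each value by the local lowest value. Over these loci the rank correlation of span with the divided values was 0.09 in wild type and 0.10 in dek2. Within the classes of span, the rank correlation of undivided wild-type and dek2 levels lay between 0.59 over 131 loci at 200 to 249 bp and 0.79 over 74 loci at 150 to 199 bp. These are correlations across loci of 1 pair of libraries.

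Neighbouring loci of equal span were few, and most of them did not share a level. Within 100000 bp of each other 10 pairs were found. Both members had a value in wild type in 7 pairs, of which 3 had equal values, and in dek2 in 8 pairs, of which 2 had equal values. Among the unequal pairs, the 285 bp loci on chromosome 7 from 163704804 to 163705089 and from 163792949 to 163793234 were at 95.9 and 13.7 FPKM in wild type, a ratio of 7, and at 18.9 and 3.53 FPKM in dek2. The 4 pairs with equal values in a library follow. On chromosome 7 the loci from 106951910 to 106952197 and from 106992344 to 106992631 (287 bp) had the same value in each library, 0.849 FPKM in wild type against 1.87 in dek2. A pair on chromosome 7 from 97032963 to 97033250 and from 97047034 to 97047321 had 1.70 FPKM each in wild type and 0.935 and 3.74 FPKM in dek2, which is 1 and 4 steps. On chromosome 1 the loci from 42479822 to 42480030 and from 42480631 to 42480839 (208 bp) had 4.66 FPKM each in wild type and no value in dek2. On the same chromosome the loci from 120342300 to 120342585 and from 120350194 to 120350479 (285 bp) had 1.02 FPKM each in dek2 and were without a value in wild type. Whether members of such pairs share reads could not be examined without their sequences, so their single values are uncertain.

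The 6 loci outside the chromosomes included the only organellar one. The mitochondrial locus from 266973 to 267231 (258 bp) had 2.83 FPKM in dek2, 2.75 times the local lowest value, and was without a value in wild type. Besides the abundant scaffold_502 locus, a scaffold_507 locus of the same 258 bp had 3.58 FPKM in wild type against 12.5 in dek2, at a log2 ratio of 1.02. The other 3 had a value in 1 library only.

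Loci whose span is a multiple of 3 were also set beside the others. Both values were listed for 43.4% of the 429 loci with such a span and for 39.0% of the 474 others. At least 2-fold higher were 17.8% and 12.1% of those with a ratio, and 20.5% and 24.7% were at least 2-fold lower, with medians of -0.15 and -0.21. The spread between libraries of a genotype is unknown, so these shares are set side by side only.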

How the data were processed

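The authors deposited 1 table of FPKM values per genotype, per the file headers, with 1 row per chromosome coordinate. Bowtie 0.12.2 is named in the submitters' processing notes. How FPKM was computed, how multiply mapping reads were treated and which genome build and annotation were used is not given in the sources at hand. Per the labels' protocols, Trizol-extracted, DNase-treated RNA went into standard Illumina libraries, and selection of poly(A) RNA or of sizes is not stated. The depth of the libraries is unknown from FPKM, and no counting interval could be computed.

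Both tables list the same coordinates in the same order and were paired line by line. The value 1e-05 was treated as no value, and no ratio was formed with it. dek2 was divided by the median ratio of rows at 1 FPKM or more in both libraries (0.59 on the log2 scale), and log2 ratios used a pseudocount of 1 FPKM. A locus was counted as different at 2-fold or more with 1 FPKM in at least 1 library. The local lowest value needed 5 loci with a value. Loci were named by fixed rules: the 6 highest of each library, the 5 highest and 5 lowest ratios at 10 FPKM or more, the 4 highest with no value in the other library, the 2 shortest with both values and organellar loci at 1 FPKM. The members and rules were chosen with earlier results of these data known, and the local lowest value, the steps and the equal-span pairs after seeing the values. Scripts ran in Python 3.11.15 with pandas 2.3.3 and numpy 2.4.6 and were tested on simulated data.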

Additional observations from a re-analysis of the deposited data

How the results depend on the processing

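The median log2 ratio of the short loci (-0.17) turned positive on the deposited values (0.31), at 10 FPKM or more (0.042), with 1e-05 taken as 0 (0.36) and at 10 times the local lowest value in at least 1 library (0.17). Its direction is therefore not read as a result. The 55 higher and 83 lower loci became 105 and 49 on the deposited values, 338 and 272 with 1e-05 taken as 0, 12 and 25 at spans under 200 bp, 100 and 130 under 400 bp, and 32 and 45 at 3-fold. At 10 times the local lowest value 40 were lower. These moves follow from construction, since each setting changes the shift, the threshold or the loci counted. The wild-type share (6.22%) was 4.13% without the 100 most abundant rows of each library, 9.57% of rows with a coordinate of their own and 3.08% without the 10 most abundant short loci. The dek2 share (11.7%) was 4.58% without the 100 most abundant rows, 5.34% without the 10 most abundant short loci and 6.93% for loci with both values. Of rows with a coordinate of their own it was 15.4%. Loci with a value in dek2 only (315) and in wild type only (189) numbered 131 and 70 at 10 FPKM and 132 and 80 under 200 bp. For 16 named loci with a ratio, 2 of 48 alternatives changed sign, both on the deposited values: chromosome 9 from 23082518 (0.047) and chromosome 1 from 298652864 (0.25). A further 15 kept their sign but moved by more than 0.5 on the log2 scale. The alternatives using the local lowest value, loci with both values and the 10 most abundant short loci were added after the data were seen. With n = 1 no replicate could be left out. No paired analysis was possible because each genotype has 1 table.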

Other observations

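The short loci were not spread evenly over the order in which the tables list their rows. Within 2000 consecutive rows, from row 37623 to row 39622, stood 305 of the 903 short loci (33.8%), although these rows are 4.43% of the table. They lay on all 10 chromosomes. Of the 122 loci of 100 to 149 bp, 112 stood there. The short loci in this stretch had a median span of 191 bp and the others 235 bp. Both values were listed for 34.8% of them and for 44.3% of the others, and the median FPKM was 14.7 against 5.83 in wild type and 17.8 against 7.32 in dek2. Both measures differ with span, and no comparison within a class of span was made. Longer rows in the same stretch had a median span of 937 bp, against 2803 bp for all rows of 300 bp or more. The order of the rows is not explained in the sources used here, and the stretch was chosen as the one with the most short loci after the values were seen.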
